A study of Mus musculus with 2 samples.

Results

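The 2'-5' oligoadenylate synthetase (OAS) family was described in mouse macrophage-like cells, spelled RAW246.7 in the labels, after 24 h of 20% elongation strain (stretched) and after 24 h of loading labelled as normal (control). The members were the 8 genes Oas1a, Oas1b, Oas1c, Oas1g, Oas2, Oas3, Oasl1 and Oasl2, each found by its own symbol among the 55414 genes of the deposited table, and all 8 passed the filter of 20 counts that 12772 genes passed. Each group was 1 library of polyadenylated RNA, so variation between cultures is unknown here and no test of the strain was possible. No strain value is given for the normal condition, and the labels do not say whether loading was cyclic or static. Both groups are the same line, with no engineered allele named. By its title, the study concerns Rapgef3 and macrophages in joint inflammation under excessive load.

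OAS proteins are interferon-inducible sensors of double-stranded RNA. The active enzymes join ATP into short 2'-5'-linked oligoadenylates (2-5A), a second messenger of antiviral defence. Mice carry several Oas1 copies, only some of which make 2-5A, and a pair of OAS-like genes with a ubiquitin-like tail. In macrophages the family is part of the standing antiviral equipment and is induced further by interferon.

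The libraries held 13391645 estimated counts (stretched) and 14769100 (control). All 9 macrophage markers were detected, with a summed level of 7528 CPM (counts scaled to library size with TMM factors) in stretched and 5922 in control, a log2 difference of 0.35, and 0 of them differed by 2-fold. Without Lyz2, the lysozyme gene, the other 8 markers summed to 4277 CPM in stretched and 3989 in control, a log2 difference of 0.10, and 3 of the 9 were lower in stretched. The part of this difference in the results was not tested. The 8 synovial fibroblast markers summed to 14 counts in stretched and 17 in control, with 5 of them at 0 in both, although the labels name the tissue as synovial membrane. T cell, B cell and endothelial markers summed to 5, 13 and 20 counts in stretched and to 4, 11 and 22 in control. In bulk RNA, more expressing cells and more RNA per cell cannot be told apart.

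Every member was higher in the stretched library, and 7 of 8 met the size rule, which asks for at least 20 counts over both libraries, a difference of at least 2-fold and a 95% counting interval of the ratio that excludes 1. Over all 12772 filtered genes, 3.12% met that rule on the higher side and 1.94% on the lower side, where no member stood. The log2 difference, stretched over control, had a median of 1.58 over the 8 members, against -0.0014 over all filtered genes. Summed over the family there were 9200 counts in stretched and 3458 in control, or 683 CPM in stretched against 235 in control, which was 2.90-fold (95% counting interval 2.79 to 3.02). The family took 0.0687% of all counts in stretched and 0.0234% in control. Of that difference in CPM, which is not per length, Oas3 accounted for 34.1% and Oas2 for 25.8%, whereas Oasl2, with the largest ratio, accounted for 5.94%. Counting intervals leave out variation between cultures. They may also fall short of the counting error itself, since counts are estimates and copies made by PCR are not independent molecules.

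The order of the members by level was the same in both libraries for the 5 highest. On the FPKM scale, which is per length, the stretched library had Oas1g highest at 58.4, followed by Oas1a at 56.0, Oas3 at 43.6, Oas2 at 37.9, Oasl1 at 23.8, Oasl2 at 8.82, Oas1b at 6.91 and Oas1c at 4.64. In the control library the first 5 places were the same, with Oas1g at 29.1, Oas1a at 25.0, Oas3 at 11.4, Oas2 at 9.69 and Oasl1 at 9.59 FPKM, followed by Oas1c at 2.27, Oas1b at 1.38 and Oasl2 at 0.536. Oasl2 was thus the lowest member in control and the sixth in stretched. The first place of Oas1g rests on FPKM summed over all its transcripts. Its protein-coding transcript alone had 29.6 FPKM in stretched and 15.5 in control, below Oas1a in both libraries. In stretched it was also below the leading transcripts of Oas3 (40.9) and Oas2 (33.5). A retained-intron transcript of 769 bases added 20.6 FPKM to Oas1g in stretched and 7.78 in control. Neighbours whose counting intervals overlapped were Oas1g and Oas1a, and Oasl2 and Oas1b, in stretched, and Oas2 and Oasl1, and Oas1c and Oas1b, in control. Oas1g exceeded 94.3% of the genes detected in stretched and 87.3% of those in control, while Oasl2 exceeded 66.2% in stretched and 38.8% in control.

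**Figure D1:**
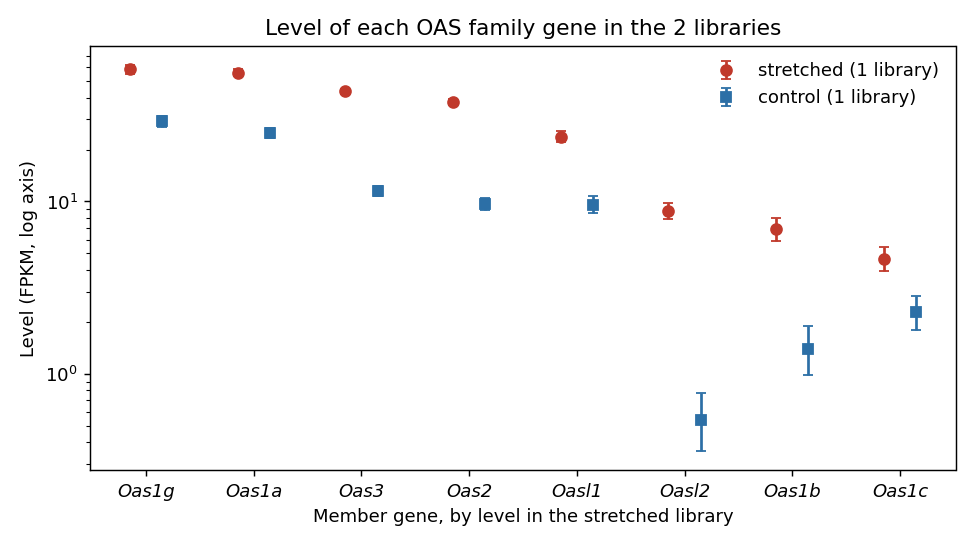
Level of each member in FPKM (log axis) in the stretched library (circles) and the control library (squares), 1 library each; bars are 95% counting intervals. Each circle lies above its square, and the gap is widest at Oasl2, with 8.82 FPKM in stretched and 0.536 in control.

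Oas1a and Oas1g encode the active Oas1 enzymes of the mouse. Oas1a (ENSMUSG00000052776) lies on chromosome 5 at 121034319 to 121045584 (GRCm39, as are all gene positions here), minus strand, and had 1535 counts in stretched and 771 in control, a 2.17-fold difference (1.99 to 2.37). Oas1g (ENSMUSG00000066861, chromosome 5, 121014205 to 121025676, minus strand) had 1261 counts in stretched and 743 in control, 1.85-fold (1.69 to 2.03), and was the member that did not meet the rule. These genes stand on either side of the 2-fold line, and their intervals overlap. Their separate values are uncertain, because their leading transcripts were 97.5% identical over 1860 aligned bases, and 57.6% of all 50-base windows of the Oas1a transcript occur letter for letter in an Oas1g transcript. The sources used here do not say how such reads were divided. The summed counts, which do not depend on the division between the pair, were 2796 in stretched and 1514 in control, 2.01-fold (1.89 to 2.15).

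The promoters of this pair are near-copies as well, and are shown because both carry letters of the interferon response. Windows from 250 bases before to 50 after the start used in the table came from RefSeq (GRCm38.p6, a different build from the deposited GRCm39 coordinates), and 6 of the 8 members had one. The interferon-stimulated response element (ISRE) core was searched as GAAANNGAAA and, on the other strand, TTTCNNTTTC. It occurred in 4 of the 6 windows (Oas1a, Oas1c, Oas1g and Oas3) and in 3.44% of all 32851 promoter windows in the table. Capitals below mark the ISRE core matches, which overlap each other in Oas1a and Oas1g. Oas1a is chr5:120907476-120907775 and Oas1g is chr5:120887564-120887863, both minus strand, and their windows were 88.8% identical over 294 aligned bases.
Oas1a promoter: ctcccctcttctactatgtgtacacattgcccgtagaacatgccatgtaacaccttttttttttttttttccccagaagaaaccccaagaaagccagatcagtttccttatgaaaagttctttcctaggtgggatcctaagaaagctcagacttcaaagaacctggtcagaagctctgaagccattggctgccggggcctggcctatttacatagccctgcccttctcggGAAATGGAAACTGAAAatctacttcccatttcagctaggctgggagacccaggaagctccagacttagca
Oas1g promoter: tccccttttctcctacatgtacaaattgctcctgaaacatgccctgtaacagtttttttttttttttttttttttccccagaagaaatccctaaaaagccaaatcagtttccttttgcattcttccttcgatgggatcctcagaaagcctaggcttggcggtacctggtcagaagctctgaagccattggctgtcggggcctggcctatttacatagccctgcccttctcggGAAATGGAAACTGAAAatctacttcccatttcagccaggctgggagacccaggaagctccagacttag
The matches began at positions -20 and -14 of Oas1a and at -18 and -12 of Oas1g, counted from the table's start. The gamma-activated site, searched as TTCNNNGAA, which reads the same on both strands, occurred in 1 member window, that of Oas1a at -98, and in 8.3% of all windows. A match describes letters and was not tested as a binding site.

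Oas2 and Oas3 carry repeated synthetase units, and both make 2-5A. Oas3 (ENSMUSG00000032661, chromosome 5, 120891163 to 120915726, minus strand) had 2852 counts in stretched and 868 in control, 3.58-fold (3.32 to 3.87). Oas2 (ENSMUSG00000032690, chromosome 5, 120868398 to 120887918, minus strand) had 2109 counts in stretched and 604 in control, 3.81-fold (3.48 to 4.18). The intervals of these neighbouring genes overlapped each other, and both lay wholly above those of Oas1a and Oas1g. Neither transcript shares a 50-base window with another OAS gene, so their counts do not depend on reads divided among paralogs. Summed, the pair was 3.68-fold higher (3.47 to 3.90), against 2.01-fold for the Oas1a and Oas1g sum. The Oas3 window (chr5:120777610-120777909, minus strand, GRCm38.p6) held 1 ISRE core match, at -75, in capitals here.
Oas3 promoter: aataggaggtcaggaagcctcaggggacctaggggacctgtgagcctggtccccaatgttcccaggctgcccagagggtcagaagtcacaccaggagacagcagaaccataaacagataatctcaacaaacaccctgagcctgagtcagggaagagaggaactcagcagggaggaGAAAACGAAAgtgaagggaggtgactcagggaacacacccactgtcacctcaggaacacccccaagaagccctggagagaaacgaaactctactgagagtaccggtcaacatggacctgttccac

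The Oas2 difference lay in 1 of its 2 full-length protein-coding transcripts. ENSMUST00000053909 had 1887 counts in stretched and 354 in control, 5.81-fold, with a counting interval of the log2 difference from 2.38 to 2.71. ENSMUST00000081491 had 196 counts in stretched and 226 in control, a log2 interval of -0.36 to 0.20 that includes no difference. The first therefore took 89.5% of Oas2 counts in stretched (Wilson 95% interval 88.1% to 90.7%) and 58.6% in control (54.6% to 62.5%). A change in transcript share at least as large, 30.9 percentage points, was present in 7.55% of the 5707 genes with at least 500 counts in each library, and the median largest change over those genes was 2.92 points. Genes with 1 transcript, such as Oas1a, were included although their share cannot change. This lowers both the 7.55% and the 2.92 points. The 2 full-length Oas2 transcripts share 3868 bases of exon, so the division between them rests on reads over the 93 bases found only in the second, or over their junctions. The intervals above treat every estimated count as a read seen to belong to 1 transcript. They leave out error in that division and are therefore too narrow.

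In GENCODE M21 (GRCm38) ENSMUST00000081491 has 1 more exon, its exon 11 of 12, which is 93 bases long and holds its stop codon. The coding ends of both are printed because the coding sequences part there, with the stop codon in capitals. As RNA, the transcripts are told apart by the 93-base exon and the junctions around it. Only 1 exon base of ENSMUST00000053909 is absent from ENSMUST00000081491, so its printed end is set apart as coding sequence and hardly as exon. The exon lies at chr5:120733137-120733229 and the coding end of ENSMUST00000053909, in its exon 11 of 11, at chr5:120731893-120731958, both on the minus strand.
ENSMUST00000081491 exon 11: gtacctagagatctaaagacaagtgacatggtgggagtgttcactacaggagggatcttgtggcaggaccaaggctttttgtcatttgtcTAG
ENSMUST00000053909 coding end: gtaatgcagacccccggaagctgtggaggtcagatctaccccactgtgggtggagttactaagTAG
By annotation, the transcripts share 2163 coding bases, beside 90 found only in ENSMUST00000081491 and 63 only in ENSMUST00000053909.

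**Figure D2:**
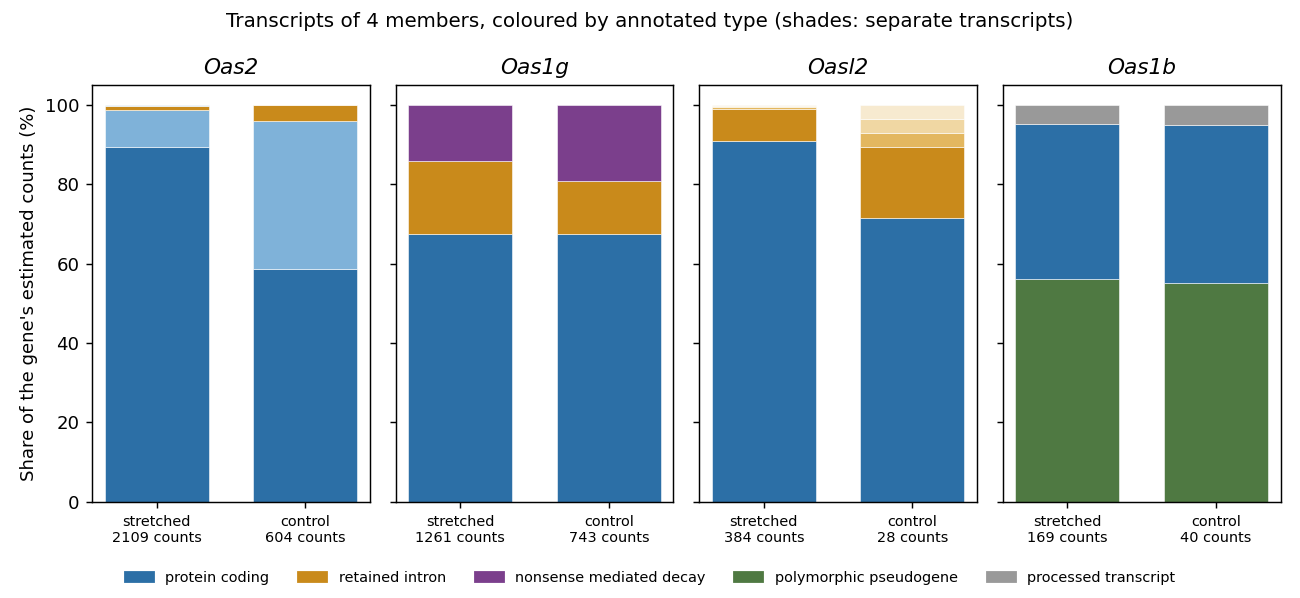
Share of each gene's estimated counts (%) assigned to its transcripts in the stretched (left bar) and control (right bar) library for Oas2, Oas1g, Oasl2 and Oas1b, coloured by annotated type, with shades for separate transcripts of a type. The leading Oas2 transcript fills 89.5% of the stretched bar and 58.6% of the control bar, whereas the Oas1b bars are nearly alike. The main Oas1b transcripts differ by few exon bases, so their division is uncertain.

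Oas1b and Oas1c encode Oas1 proteins that lack synthetase activity. Oas1b is known as the flavivirus resistance gene of wild-derived mice, and in most laboratory strains it carries a premature stop codon; the deposited table calls it a polymorphic pseudogene. Oas1b (ENSMUSG00000029605, chromosome 5, 120950700 to 120962228, plus strand) had 169 counts in stretched and 40 in control, 4.57-fold (3.25 to 6.68). Its transcript annotated as the pseudogene form had 95 counts in stretched and 22 in control, and the one annotated as protein-coding had 66 and 16 in the same order of libraries. Those shares, 56.2% and 39.1% in stretched against 55.0% and 40.0% in control, differed by less than their counting intervals. The transcripts share 1829 bases of exon, with 8 found only in the pseudogene form and 3 only in the other. The division between them therefore rests on very few bases and is uncertain. By annotation the pseudogene form has 1128 coding bases and the protein-coding form 753, so that label does not mark the longer coding sequence. Oas1c (ENSMUSG00000001166, chromosome 5, 120938259 to 120950579, minus strand) had 149 counts in stretched and 81 in control. That was a log2 difference of 1.00 (0.61 to 1.41), and it met the rule by the smallest margin. It fell below 2-fold with DESeq2 size factors, with a prior of 5 counts and on the scale of log2(FPKM + 1). Oas1b and Oas1c lie head to head with 121 bases between their 5' ends, yet their ratios differed, with intervals that do not overlap. The Oas1c window held overlapping ISRE core matches at -114 and -108, and Oas1b had no entry of its own in the promoter table. Both positions fall within the 121 bases between the 5' ends, if the window's start is the deposited 5' end of Oas1c. The matches would then lie before Oas1b as well as Oas1c. The builds differ, so their exact place relative to Oas1b is uncertain. Whether they act on either gene was not tested. Of the 50-base windows of Oas1c, 10.7% occur in another OAS gene, most of them in Oas1e, which had no counts.

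Oasl1 and Oasl2 lie 5.79 Mb away from the other members on the same chromosome. Mouse Oasl2 keeps synthetase activity and mouse Oasl1 does not; Oasl1 is known in the mouse as a brake on translation of Irf7 mRNA. Oasl2 (ENSMUSG00000029561, chromosome 5, 115034997 to 115050295, plus strand) had 384 counts in stretched and 28 in control, 14.7-fold (10.2 to 22.8). That interval lay above those of all 7 other members, and the gene ranked sixth of 12772 by log2 difference. Oasl1 (ENSMUSG00000041827, chromosome 5, 115061299 to 115075974, plus strand) had 741 counts in stretched and 323 in control, 2.50-fold (2.19 to 2.86). The pair is adjacent, 11004 bases apart, but its transcripts are only 59.1% identical over 2030 aligned bases and share no 50-base window, so their counts do not rest on reads shared between paralogs.

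Within Oasl2, the leading transcript had 349 counts in stretched and 20 in control, 18.6-fold. A single-exon model annotated as a retained intron, which shares no exon base with the leading transcript, had 31 counts in stretched and 5 in control, 6.25-fold. In Oas1g the retained-intron transcript had 230 counts in stretched and 98 in control, 2.55-fold, and took 18.2% of the gene (16.2% to 20.5%) in stretched and 13.2% (10.9% to 15.8%) in control. Its transcript annotated for nonsense-mediated decay had 180 counts in stretched and 143 in control, 1.37-fold. Over all 8 members, transcripts annotated as protein-coding took 93.4% of counts in stretched and 90.9% in control, and retained-intron transcripts 3.52% in stretched and 4.16% in control.

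The Oasl2 window (chr5:114896684-114896983, plus strand, GRCm38.p6) is shown because this gene had the largest ratio without the searched letters. It held neither motif, nor did the Oasl1 window, which says only that these letters are not in these windows.
Oasl2 promoter: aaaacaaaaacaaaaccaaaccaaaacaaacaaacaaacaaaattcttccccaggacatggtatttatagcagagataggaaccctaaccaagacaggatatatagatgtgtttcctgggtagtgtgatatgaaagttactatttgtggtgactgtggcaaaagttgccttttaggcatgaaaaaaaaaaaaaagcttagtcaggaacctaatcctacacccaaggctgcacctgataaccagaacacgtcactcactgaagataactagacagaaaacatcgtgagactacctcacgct

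Of the genes flanking the members at both places on chromosome 5, none met the rule among those compared. The 2 nearest protein-coding genes with at least 20 counts on each side of each group had log2 differences from -0.48 (Dtx1, 30 counts in stretched and 46 in control) to 0.31 (1500011B03Rik, 321 and 283 in the same order), and 0 of these 8 met the size rule. Over all filtered genes 3.12% met it on the higher side and 1.94% on the lower, so 0 of 8 does not set these neighbours apart. The closest, 2210016L21Rik, begins 4.24 kb after Oasl1 and had 341 counts in stretched and 419 in control. Inside the Oas group, Oas1h had 34 counts in stretched and 19 in control, a log2 difference of 0.95 (0.11 to 1.86) that did not meet the rule. No other gene model overlapped a member on its own strand. On the opposite strand, models overlapping Oas2, Oas1c and Oasl1 had 3, 2 and 4 counts in stretched and 0, 0 and 2 in control. The library method marks strand; no source used here states the strand setting of the counting.

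**Figure D3:**
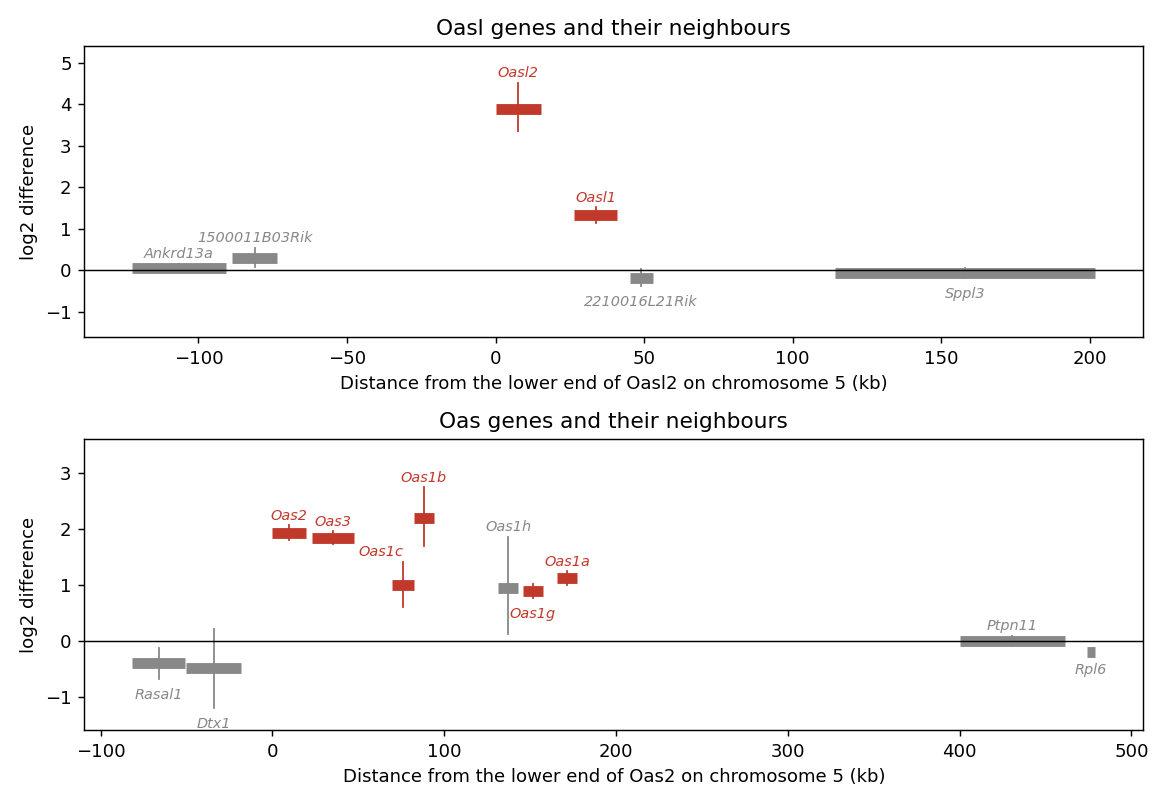
Log2 difference (stretched over control) of members (red), Oas1h and the 2 nearest protein-coding genes with at least 20 counts on each side (grey) along chromosome 5, by distance in kb from the lower end of Oasl2 (top) and of Oas2 (bottom); thick bars span the gene and thin lines are 95% counting intervals. Members lie between 0.89 and 3.88, and neighbouring genes outside the groups between -0.48 and 0.31.

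Of 7 listed genes outside the members (4 further Oas1 copies, Pde12, Akap7 and Abce1), 4 passed the count filter and 0 of these met the rule, which 3.12% of all filtered genes met on the higher side and 1.94% on the lower, so that 0 of 4 does not set the list apart. Their median log2 difference was -0.18. Pde12, whose human counterpart degrades 2-5A, had a log2 difference of -0.10, and Akap7, whose mouse protein holds a domain able to degrade 2-5A, had -0.30. Abce1, a ribosome recycling factor listed for its reported part in the 2-5A system of human cells, had 4856 counts in stretched and 6345 in control (-0.26). Oas1e and Oas1f had 0 counts in both libraries, which allows up to 3 counts, or 0.223 CPM in stretched and 0.204 in control. Oas1d, known from the oocyte, had 1 count in stretched and 4 in control.

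Among 10 genes of double-stranded RNA sensing, 5 were higher by the rule, 0 lower and 5 neither, with a median log2 difference of 0.95, against -0.0014 over all filtered genes. Of all filtered genes, 3.12% were higher by the rule and 1.94% lower. Ddx58, the gene of the RNA sensor RIG-I, had 1521 counts in stretched and 548 in control, 3.03-fold. Ifih1, the gene of MDA5, had 530 counts in stretched and 216 in control, 2.67-fold, and Dhx58, the gene of LGP2, had 480 and 239 in the same order, 2.19-fold. Zbp1 had 23 counts in stretched and 4 in control, and Tlr3 59 and 31. As log2(FPKM + 1), the differences of Dhx58 (0.99), Zbp1 (0.47) and Tlr3 (0.16) were under 2-fold. Of the genes with most counts, Trim25, an E3 ligase that acts on RIG-I signalling, had a log2 difference of 0.59 and the RNA editor gene Adar 0.86, neither meeting the rule.

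Of 11 genes that carry the interferon signal to such promoters, 9 passed the filter. The rule was met by 2 on the higher side and by 0 on the lower side, against 3.12% and 1.94% of all filtered genes. The median log2 difference of all 9 was 0.28, against -0.0014 over all filtered genes. The interferon genes Ifnb1 and Ifna4 had 0 counts in both libraries, within the limit of 3 counts given above. The kinase genes Jak1 and Tyk2, which had the most counts of the list, had log2 differences of 0.08 and 0.16. Of the transcription factors, Irf7 was 9.46-fold higher (1044 counts in stretched and 120 in control) and Stat2 2.23-fold (778 and 380), the last of these under 2-fold as log2(FPKM + 1) at 0.97, while Irf9, at a log2 difference of 0.80, did not meet the rule. The receptor gene Ifnar2 had 794 counts in stretched and 1372 in control (-0.66).

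**Figure D4:**
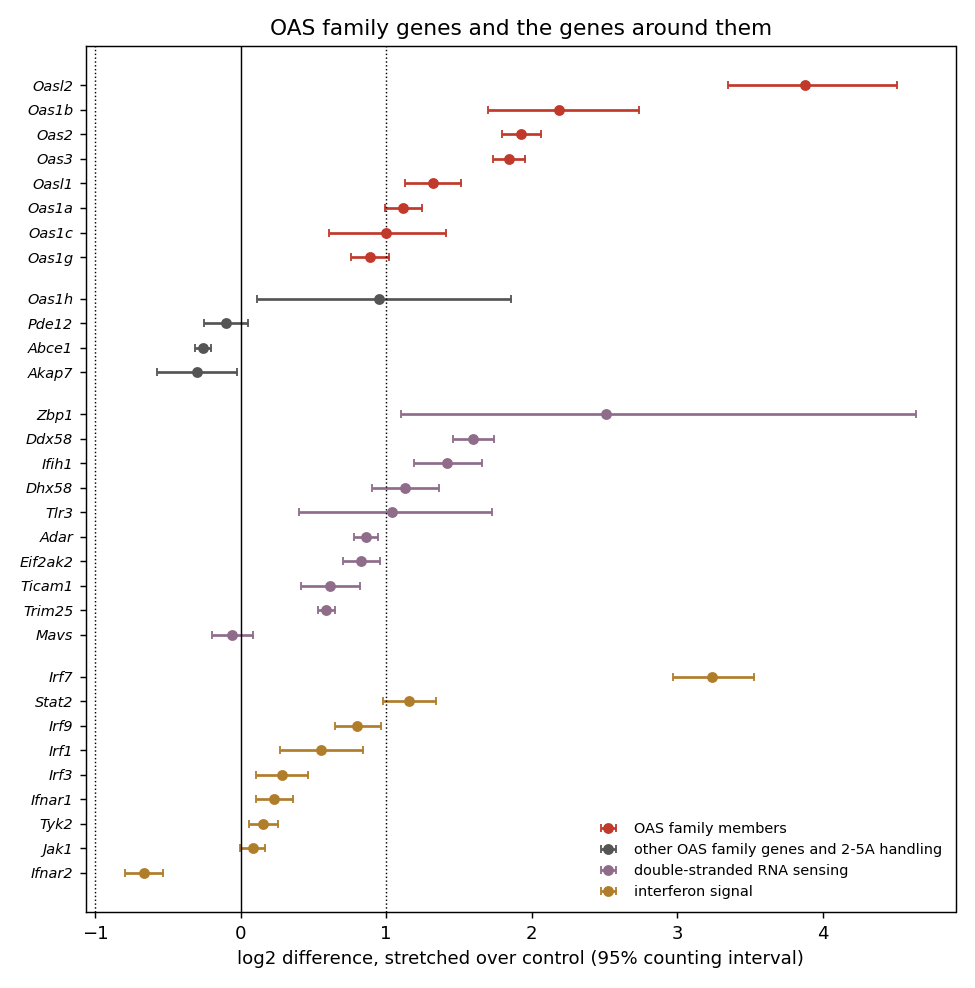
Log2 difference (stretched over control, points) with 95% counting intervals (bars) for the 8 members and for listed genes with at least 20 counts; dotted lines mark 2-fold. Members run from 0.89 at Oas1g to 3.88 at Oasl2, and Pde12, Abce1 and Akap7 lie below 0.

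With only 2 libraries, likeness to the family can be measured only as the gap between log2 differences. The named genes with at least 100 counts nearest to the family sum of 1.54 were Prkar2b (1.54), Irgm2 (1.56), Lims2 (1.56), Slc40a1 (1.51) and Ms4a6c, which lay 0.035 from it. Their gaps are small against their counting intervals, which were 0.97 to 2.18 for Prkar2b and 1.22 to 1.81 for Slc40a1. The order among these genes is therefore not resolved. Prkar2b, with 89 counts in stretched and 33 in control, was under 2-fold as log2(FPKM + 1) at 0.59. Nearest to Oasl2 at 3.88 were Apol9b (3.83), Ifi44l (3.96) and Atp6v0d2 (3.62), also with wide intervals, such as 3.10 to 4.78 for Apol9b.

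In the authors' deposited table, 7 members are marked as up, with log2 fold changes from 1.00 (Oas1c) to 3.90 (Oasl2). In the authors' deposited table Oas1g has 0.89, without that mark.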

How the data were processed

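Polyadenylated RNA of 1 stretched and 1 control library was analysed. Per the labels' protocols, libraries were made with dUTP strand marking. StringTie and GRCm39 are named in the submitters' processing notes; no aligner, tool version or strand setting is stated in the sources used here. Estimated counts per gene and transcript were deposited by the authors as whole numbers with FPKM values, per the file headers, and the authors' log2 fold changes, per the file headers, are quoted as theirs. From the values, counts look rounded up for each transcript: of transcripts under 500 counts, 99.99% in each library lay between FPKM times length times 1 constant and that product plus 1, within 0.05. Genes without a symbol were named from the GENCODE M21 table by identifier.

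TMM scaling (edgeR 4.0.16, R 4.3.3) gave factors of 1.01 for stretched and 0.995 for control. The log2 difference used a prior of 0.5 counts; ratios carry exact conditional binomial (Clopper-Pearson) 95% intervals, and FPKM intervals scale an exact Poisson interval of the count. These leave out variation between cultures and treat estimated counts as independent observed reads. Intervals of transcript shares (Wilson) and transcript ratios also leave out error in dividing reads among transcripts. A count of 0 allows up to 3 counts. The calculation was run on simulated libraries with Poisson counts and planted changes, which checks the code only. Those libraries held no variation between cultures, no rounding of counts and no reads divided among genes or transcripts. Alternatives were DESeq2 1.42.0 size factors, library totals, other filters, a prior of 5, FPKM with 1 added and counts rebuilt from FPKM and length. Transcript identity came from Biopython 1.88 alignments of GENCODE M21 transcripts; protein identity was not computed, as no protein table was used here. The members and gene lists were chosen with earlier results of these data known. All members were named, and listed genes when they met the size rule or had the most counts in their list; other genes named were chosen after their values were seen. Some listed genes are not reported here and were left out of the lists' counts and medians.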

Additional observations from a re-analysis of the deposited data

How the results depend on the processing

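The number of members meeting the size rule was 7, and stayed at 7 with library totals and with counts rebuilt without rounding up. No filter, a minimum of 100 counts and sums over overlapping same-strand models could change no member, since all had at least 209 counts and none had such an overlap. It was 6 with DESeq2 size factors, with a prior of 5 and on the FPKM scale with 1 added, where Oas1c fell out each time. Over the 5 settings that could change a member, 37 of 40 values kept their side of the rule, 3, all of Oas1c, did not, and 0 changed sign. The log2 difference of the summed family, 1.54, was between 1.49 and 1.55 under the other scalings, the prior of 5 and rebuilt counts. Leaving out 1 member moved it outside its counting interval for Oas1a (1.64), Oas1g (1.67), Oas2 (1.44) and Oas3 (1.42), since these hold most of the counts. The Oas2 share change of 30.9 percentage points was 30.8 with rebuilt counts and 30.8 by FPKM, both chosen after seeing the data. No paired analysis was possible because each group has 1 library, and for the same reason no library could be left out. With 28 control counts, the Oasl2 ratio is the least precise, and its log2 difference was between 2.68 (FPKM with 1 added) and 4.07 (rebuilt counts) over these settings.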
